A study of Mus musculus with 3 samples.

Results

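Müller glia are the radial glial cells that span the whole thickness of the retina and keep the surroundings of its neurons constant. The genes described here are 10 that serve this housekeeping: Slc1a3 and Glul for glutamate, Rlbp1 for retinoids, Aqp4 for water, Car14 and Car2 for carbon dioxide and acid, Apoe and Clu for lipid and protein transport, Vim for the cell's filaments, and the secreted protein gene Dkk3. Members were all probe sets (groups of short probes that together report 1 transcript) to which the array's platform annotation gave exactly 1 gene symbol and that symbol was on the list. This found 13 probe sets for 9 of the 10 genes, out of 12422 probe sets and 8251 genes on the array. Slc1a3, the glial glutamate transporter GLAST, had no such probe set and was not analysed here.

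The data were 3 one-colour arrays of neural retina from Rp1 knockout (Rp1-/-) mice on a mixed 129/SvEv and C57BL/6 background, taken at postnatal day 21 between 1 and 2 pm, with 1 array for each pool of retinas from 3 to 4 mice. The sample titles carry the array name U74Av2. Rp1 encodes a microtubule-associated protein of photoreceptor outer segments, so all samples carried the same loss of a photoreceptor gene, and samples of other genotypes were not analysed here. The 3 pools therefore form 1 group, conditions could not be compared, and every result below describes how far the pools differed from each other. Replicate numbers only name the pools, and the labels do not say which mice or sexes went into each.

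Glutamate released by photoreceptors and bipolar cells is taken up by Müller cells and turned into glutamine by glutamine synthetase, the product of Glul. Cellular retinaldehyde-binding protein, from Rlbp1, carries 11-cis retinoids in Müller cells and in the pigment epithelium behind the retina. Aquaporin 4, concentrated at the Müller cell endfeet, lets water follow potassium out of the retina. These genes are used as markers of the cell type, but none is exclusive to it: astrocytes also express Glul, Aqp4, Apoe and Clu, vascular and connective tissue cells express Vim, and the pigment epithelium expresses Rlbp1 and Car14.

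There were 3 patterns among the members. Clu, Aqp4 and Car14 were lowest in replicate 1 at each of their 5 probe sets and under every array scaling tried. Vim, and Glul at 1 of its probe sets, were highest in replicate 1 under every scaling. Rlbp1, Car2, Dkk3 and the brighter probe set of Apoe spanned 1.48-fold to 1.76-fold from the lowest to the highest pool. Of these, Dkk3 was also lowest in replicate 1 under every scaling, and is placed here for its narrower span. Their spans were at most 1.41-fold after quantile normalization, and 1.92-fold to 2.41-fold with arrays scaled to the same median. Of the 13 probe sets, 12 were above background on all 3 arrays, where 54.4% of all probe sets were, and all 9 measured genes had at least 1 such probe set. Background was set per array at the 95th percentile of 19 controls that detect bacterial or yeast RNA, which came to 160.3, 80.7 and 107.1 in replicates 1, 2 and 3. The other probe set, an additional one for Apoe, was below it on every array.

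**Figure D1:**
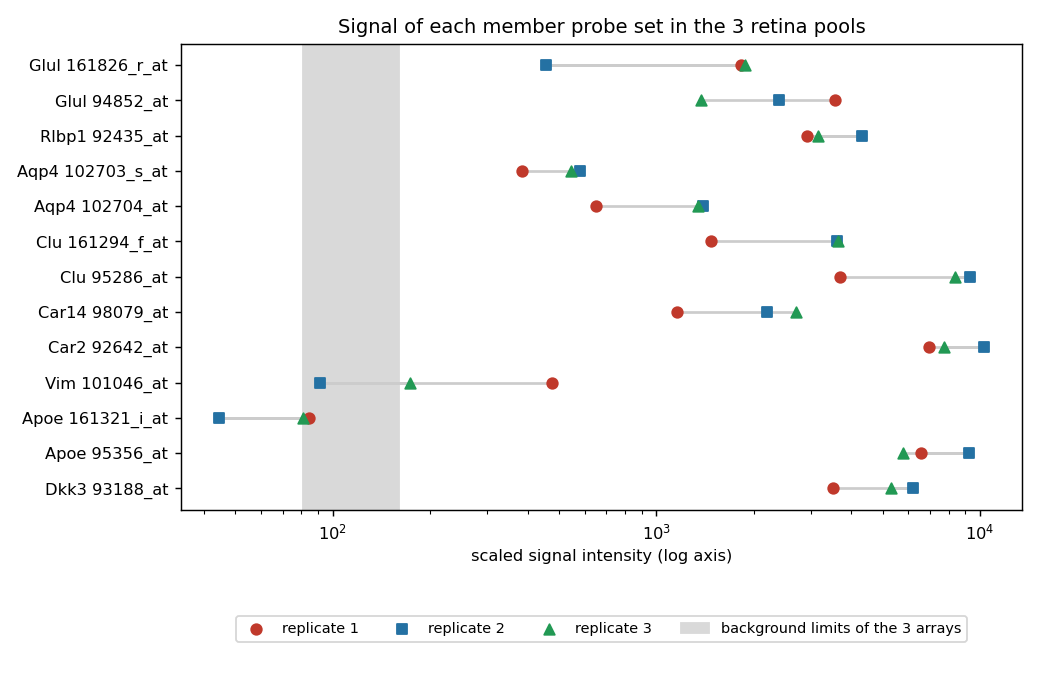
Scaled signal intensity (log axis) of the 13 probe sets of the measured members in replicates 1 (circles), 2 (squares) and 3 (triangles), with the span of the 3 background limits shaded. Clu, Aqp4, Car14, Dkk3, Rlbp1 and Car2 have their circle at the left end, and Vim has its circle at the right end. The probe set Apoe 161321_i_at lies below the limit of each array.

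The RefSeq regions before the start of Glul and Vim, of Car14, and of Rlbp1 are shown because these genes stand for the 3 patterns and have a single start in the table of mouse promoters (build GRCm38.p6), which held 6 of the 10 genes. Each line gives the 250 bases before the first transcribed base, 5′ to 3′ on the gene's strand: chr1:153899679-153899928 on the plus strand for Glul, chr2:13574061-13574310 on the plus strand for Vim, chr3:95904686-95904935 on the minus strand for Car14 and chr7:79387028-79387277 on the minus strand for Rlbp1. Capitals mark matches, on either strand, to the TATA box motif TATAAA, the CCAAT box, the GC box motif GGGCGG, the E-box motif CANNTG, the motif TAATCC that OTX and CRX factors recognise, and the motif ACAAAG that SOX factors recognise.
Glul: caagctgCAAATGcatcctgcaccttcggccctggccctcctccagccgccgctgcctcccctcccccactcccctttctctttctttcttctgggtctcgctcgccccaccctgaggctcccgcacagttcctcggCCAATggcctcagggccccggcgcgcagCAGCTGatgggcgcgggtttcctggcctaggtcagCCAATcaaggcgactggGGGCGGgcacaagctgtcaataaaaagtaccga
Vim: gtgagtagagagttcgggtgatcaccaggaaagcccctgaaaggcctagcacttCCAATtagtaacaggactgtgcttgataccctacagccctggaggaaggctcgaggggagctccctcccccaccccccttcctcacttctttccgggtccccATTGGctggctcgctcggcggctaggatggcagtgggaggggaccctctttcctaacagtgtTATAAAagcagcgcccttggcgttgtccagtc
Car14: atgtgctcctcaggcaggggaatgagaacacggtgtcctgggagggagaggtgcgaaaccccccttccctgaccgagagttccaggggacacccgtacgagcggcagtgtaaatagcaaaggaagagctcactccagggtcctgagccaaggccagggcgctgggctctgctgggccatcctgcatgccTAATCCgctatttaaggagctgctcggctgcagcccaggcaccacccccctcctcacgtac
Rlbp1: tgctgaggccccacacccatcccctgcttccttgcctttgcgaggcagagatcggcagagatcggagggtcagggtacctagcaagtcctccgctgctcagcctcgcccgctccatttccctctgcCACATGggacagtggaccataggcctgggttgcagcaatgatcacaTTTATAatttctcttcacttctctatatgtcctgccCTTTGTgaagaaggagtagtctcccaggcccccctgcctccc
In these windows Vim held TATAAA at position -32, counting the first transcribed base as +1 with no 0, and Rlbp1 held it at -78, against 12.4% of the 32851 promoters in the table. CCAAT was found in both Glul and Vim (2 matches each) and in neither Car14 nor Rlbp1, against 33.8% of promoters. TAATCC was found in Car14, at -61, and in 6.25% of promoters, and ACAAAG in Rlbp1 and in 16.5%. GGGCGG was found in Glul and in 32.7% of promoters, and CANNTG in Glul (2 matches) and Rlbp1 (1 match) and in 66.2%. The windows held 64.8% G and C for Glul, 58.4% for Vim, 62% for Car14 and 57.2% for Rlbp1, against a median of 52.4%. These matches describe the letters only, and binding was not measured.

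Glul was measured by a pair of probe sets that disagreed. Probe set 94852_at gave 3557, 2390 and 1378 in replicates 1, 2 and 3, with a mean of 2442 ± 1091 (SD, n = 3) and a 2.58-fold span between replicates 1 and 3. Probe set 161826_r_at gave 1828, 457 and 1873, a mean of 1386 ± 805 (SD, n = 3) and a 4.10-fold span between replicates 3 and 2. The first put replicate 3 lowest, and the second put it level with replicate 1 and put replicate 2 lowest. Centred on each probe set's own mean, their log2 values differed by up to 1.42, a larger disagreement than in 94.1% of the 794 genes with at least 2 probe sets above background (median 0.62). The suffix _r marks probe sets for which the array's makers had relaxed their rules of probe selection. In a comparison added after the values were seen, 65.7% of the 344 such probe sets above background were lowest in replicate 2. This was the case for 32.7% of the 5466 with a plain name. The median log2 deviation there was -0.50 against -0.01, and Glul 161826_r_at deviated by -1.35. The part of probe selection in the Glul difference was not tested. After quantile normalization both Glul probe sets were highest in replicate 1, and their lowest arrays still differed. At 94852_at replicate 1 was highest and replicate 3 lowest under every scaling, with a span of 2.18-fold to 3.24-fold.

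Of the other genes of glutamate handling, 10 of 13 listed were measured, 6 were above background on all arrays, and 2 of these had a span of 2-fold or more, where 62.5% of all genes were above background and 29.3% of those had such a span at their highest-mean probe set. Slc1a1, a neuronal glutamate transporter, gave 167, 484 and 374 and was thus lowest in replicate 1, where the background limit was 160.3. Its relative Slc1a2 was nearly even, with 168, 143 and 138, and was as close to that limit in replicate 1. The mitochondrial aminotransferase gene Got2 gave 1881, 894 and 2203 at a probe set that also has the suffix _r, with replicate 2 lowest.

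Rlbp1 gave 2926, 4329 and 3156, with a mean of 3470 ± 753 (SD, n = 3). Replicate 2 was highest, and replicates 1 and 3 were 1.08-fold apart. The log2 SD of 0.30 was larger than that of 43.0% of the probe sets in the same quintile of signal level. Among other retinoid genes, 7 of 12 were measured and 4 were above background on all arrays. Of those 4, 1 spanned 2-fold or more, against 29.3% of all genes above background. Crabp1, a retinoic acid-binding protein gene, gave 535, 296 and 197. Rgr, the opsin of Müller cells and pigment epithelium, gave 405, 585 and 406, with replicate 2 highest as for Rlbp1. The pigment epithelial dehydrogenase gene Rdh5 was below background in replicate 1, at 56.7, and gave 587 and 316 in the others. Rlbp1 was 18.3 times the background limit in that pool.

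Aqp4 was low in replicate 1 at both of its probe sets. Probe set 102704_at gave 650, 1395 and 1347 (mean 1131 ± 417, SD, n = 3), and 102703_s_at gave 383, 581 and 545 (mean 503 ± 105, SD, n = 3). Replicates 2 and 3 were within 1.07-fold of each other at both, and replicate 2 was 2.14-fold above replicate 1 at the first and 1.52-fold at the second. Their centred log2 values differed by at most 0.35, less than the median of 0.62 among genes with several probe sets. The potassium channel gene Kcnj10, the usual partner of Aqp4 in Müller endfeet, had no probe set of its own and was not analysed here. Of other genes of water and potassium transport and the dystrophin complex that anchors Aqp4, 8 of 11 were measured. Of these, 6 were above background on all arrays. A span of 2-fold or more was found in 4 of the 6, against 29.3% of all genes above background. Only Dag1, the dystroglycan gene, was lowest in replicate 1 among these 6, where 35.9% of all genes were. It gave 473, 633 and 1143, although its other probe set was highest in replicate 1. With arrays scaled to the same median 2 of the 6 were lowest there, against 53.9% of all genes. Dmd, the dystrophin gene, gave 502, 207 and 258, and the potassium channel gene Kcnk2 gave 266, 83.5 and 311.

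The carbonic anhydrases speed the exchange of carbon dioxide and bicarbonate, Car14 at the cell surface and Car2 in the cytosol. Car14 gave 1158, 2196 and 2702, with a mean of 2019 ± 787 (SD, n = 3). It was lowest in replicate 1 and highest in replicate 3, a 2.33-fold span that lay between 2.21-fold and 2.76-fold under the other scalings. Car2 gave 6957, 10302 and 7745, with a mean of 8335 ± 1748 (SD, n = 3). Its span was 1.48-fold, and was 1.11-fold after quantile normalization and 2.02-fold with arrays scaled to the same median. Replicate 1 was lowest for Car2 as well, except after quantile normalization, where replicate 3 was. Of other carbonic anhydrases and acid transporters, 13 of 20 were measured and 8 were above background on all arrays. Of those 8, 3 spanned 2-fold or more, against 29.3% of all genes above background. Car8, a catalytically inactive relative, gave 414, 1198 and 977, while the mitochondrial Car5a gave 518, 129 and 122 and Car12 gave 380, 198 and 172. The bicarbonate exchanger gene Slc4a3 was the steadiest, at 1694, 1979 and 1841.

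Clu encodes clusterin, a secreted chaperone and apolipoprotein, and its probe sets gave nearly the same pattern. Probe set 95286_at gave 3682, 9331 and 8369 (mean 7128 ± 3022, SD, n = 3), and 161294_f_at gave 1473, 3621 and 3642 (mean 2912 ± 1247, SD, n = 3). Replicate 1 was the lowest by 2.27-fold and 2.46-fold or more, and replicates 2 and 3 were within 1.11-fold of each other. The largest disagreement between the probe sets was 0.10 on the log2 scale, smaller than in all but 2.39% of genes with several probe sets. After quantile normalization the spans were 1.83-fold and 2.25-fold, with replicate 1 still lowest at both. Of the 3 members with at least 2 probe sets above background, Clu and Aqp4 had the same lowest array at each, against 33.4% of all such genes. Aqp4 alone had the same highest array at each, against 33.5%, since replicates 2 and 3 of Clu lay so close.

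Apoe, the gene of the main lipid carrier released by Müller cells, did not share this pattern. Probe set 95356_at gave 6581, 9232 and 5775, with a mean of 7196 ± 1809 (SD, n = 3). Replicate 3 was lowest, by 1.14-fold against replicate 1, and replicate 1 became lowest under scaling to a common median. Of the other lipid carriers and lipoprotein receptors, 14 of 16 were measured and 9 were above background on all arrays. Of those 9, 2 spanned 2-fold or more, against 29.3% of all genes above background. Their median log2 SD was 0.25, against 0.38 over all probe sets above background. The cholesterol exporter gene Abca1 gave 413, 404 and 439 at its brighter probe set, but 53.4, 294 and 299.5 at the other, which was below background in replicate 1. Abcg1, another cholesterol exporter gene, gave 1150, 1015 and 2055. The receptor gene Vldlr gave 329, 138 and 206 at its brighter probe set, but 245, 210 and 168 at the other, which put replicate 3 lowest.

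Vim, the intermediate filament gene vimentin, had the widest span of any member. Its only probe set gave 475, 91.1 and 174, with a mean of 246 ± 202 (SD, n = 3). Replicate 1 was 5.21-fold above replicate 2, and replicate 2 was only 1.13 times its background limit. Probe sets this dim vary more: in the lowest quintile of level 48.9% spanned 2-fold or more, and the median log2 deviation of replicate 1 was 0.39 there. Relative to those medians, Vim deviated by 0.89 in replicate 1 and -0.78 in replicate 2. Of other intermediate filament genes and their linkers, 9 of 10 were measured and 6 were above background on all arrays. Of these 6, 5 were highest in replicate 1, where 42.1% of all genes were. A span of 2-fold or more was found in 1, against 29.3% of all genes above background. The number highest in replicate 1 was 4 after quantile normalization, against 39.1% of all genes, and 2 with arrays scaled to the same median, against 23.6%. The wide span was that of Plec, the gene of the filament linker plectin, with 502, 156 and 244. Gfap, which Müller cells make when reactive, gave 777, 555 and 663, in the same order as Vim over a 1.40-fold span, except that replicate 3 was highest with arrays scaled to the same median.

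Dkk3, a secreted protein of the dickkopf family found in Müller cells, gave 3524, 6207 and 5324, with a mean of 5018 ± 1368 (SD, n = 3). Replicate 1 was lowest, by 1.76-fold against replicate 2, and by 1.20-fold against the highest array after quantile normalization. With arrays scaled to the same median the span was 2.41-fold. Of other secreted Wnt modulators and Wnt receptors, 17 of 20 were measured and 7 were above background on all arrays, where 62.5% of all genes were. The 2 other dickkopf genes measured, Dkk1 and Dkk2, were not among these 7. The receptor gene Fzd3 gave 1085, 358 and 507, the only span of 2-fold or more among the 7, against 29.3% of all genes above background. Fzd4 gave 681, 1064 and 1317.

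The spread between pools was wider for some members than is common at their level. Among the 12 member probe sets above background, 7 spanned 2-fold or more (a log2 range of 1 or more), belonging to Glul, Aqp4, Clu, Car14 and Vim, against 30.6% of all such probe sets. Signal level matters for this share, and 8 of the 12 lay in the highest quintile, where 4 of the 8 spanned 2-fold against 17.0% of all probe sets there. The median log2 SD of the members was 0.63, from 0.29 for Car2 to 1.20 for Vim, against 0.38 for all probe sets above background. After quantile normalization 6 of the 12 spanned 2-fold or more, against 27.6%, the probe set Clu 95286_at no longer doing so. Scaling to a common median gave 11 of 12, against 35.6%. Without replicate 2 the count was 6 of 12 against 18.5%, and without replicate 3 it was 5 of 12 against 23.2%. Without replicate 1 only the Glul probe set 161826_r_at still spanned 2-fold, 1 of 12 against 7.63% of all probe sets. The median SD was then 0.25, as it was for all probe sets.

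**Figure D2:**
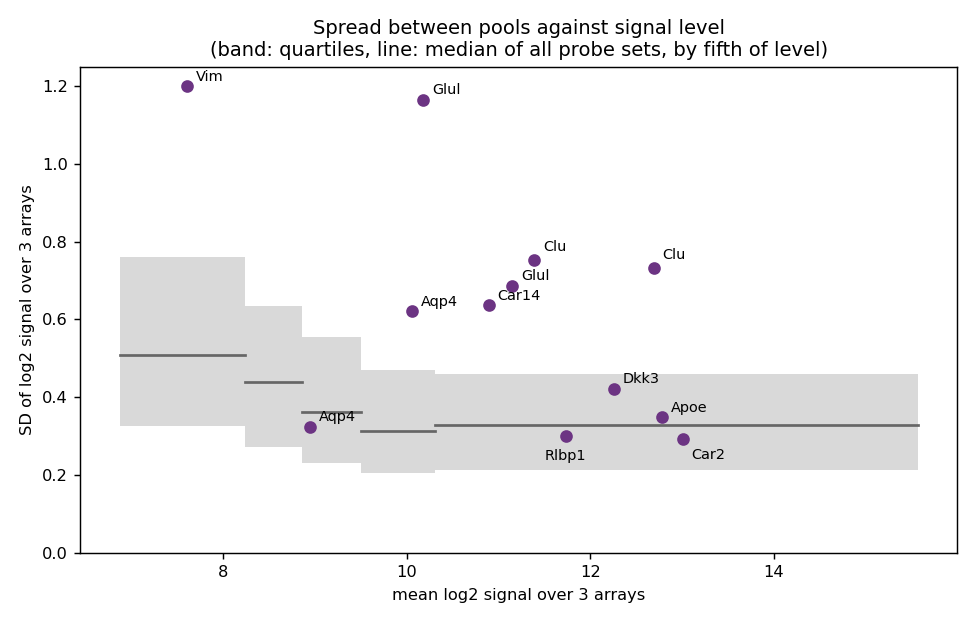
SD of log2 signal over the 3 pools against mean log2 signal for the 12 member probe sets above background (points), with the median (line) and quartiles (band) of all probe sets in each quintile of level. Vim, Glul, Clu, Car14 and 1 probe set of Aqp4 lie above the band, and Dkk3, Apoe, Rlbp1, Car2 and the other Aqp4 probe set lie within it.

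Array scale bears on the order of the pools. The arrays shared a trimmed mean, yet bright probe sets were lower and dim ones higher in replicate 1, with median log2 deviations of -0.20 in the highest quintile of level and 0.39 in the lowest. Scaling to a common median shifted replicates 1, 2 and 3 by -0.22, 0.23 and 0.02. Replicate 1 was lowest for 8 of the 12 member probe sets, against 34.8% of all probe sets. Of the 8 members in the highest quintile 6 were lowest there, against 59.7% of all probe sets in that quintile. With arrays scaled to a common median it was lowest for 9 of the 12, against 52.4%. After quantile normalization, which removes such level-dependent shifts, it was lowest for 6 of 12, against 38.7%. Those 6 were the probe sets of Clu, Aqp4, Car14 and Dkk3, while Rlbp1 and Car2 became lowest in replicate 3. With each gene counted once, 4 of the 9 members were lowest in replicate 1 after quantile normalization, near the 39.1% of all genes. The gene counts were 6 of 9 under the main scaling, against 35.9%, and 7 of 9 with a common median, against 53.9%. Relative to the median of their level, Clu deviated in replicate 1 by -0.65 and -0.67, Aqp4 by -0.67 and -0.45 and Car14 by -0.52, against -0.03 for Rlbp1, -0.04 for Car2, 0.10 for Apoe and -0.28 for Dkk3.

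**Figure D3:**
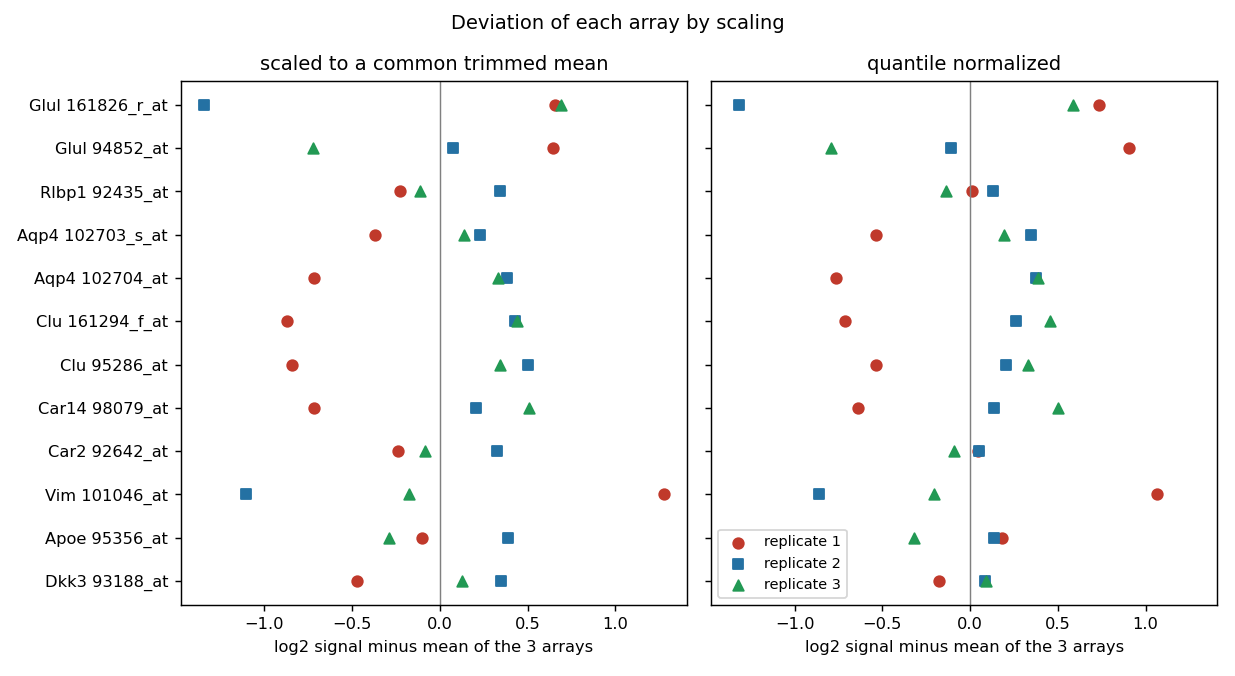
Log2 signal minus the mean of the 3 arrays for the 12 member probe sets above background, after scaling to a common trimmed mean (left) and after quantile normalization (right). Replicate 1 (circles) lies left of the others for Clu, Aqp4, Car14 and Dkk3 in both panels. The 3 arrays draw together for Rlbp1, Car2, Apoe and Dkk3 in the right panel.

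A further list of genes known from Müller cells gave a mixed picture. Of 24 genes, 19 were measured and 13 were above background on all arrays, and 8 of the 13 were lowest in replicate 1, against 35.9% of all genes. After quantile normalization 6 were, against 39.1%, and with arrays scaled to the same median 8 were, against 53.9%. Of these 13, 4 spanned 2-fold or more, near the 29.3% of all genes above background that did. Those 4 were lowest in replicate 1, but how often all genes of such a span were lowest there was not counted. Id3, a target of BMP signals, gave 221, 779 and 651. The secreted peroxidase gene Gpx3 gave 417, 1214 and 1197, and the tetraspanin gene Cd9 gave 1024, 2345 and 2000. Dbi, the gene of an acyl-CoA-binding protein, gave 2048, 4190 and 2427. Sox2 (an _r probe set) at 1414, 1359 and 1157, Hes1 at 782, 570 and 674, and Id1 at 323, 267 and 231 were the 3 genes of the 13 that were highest in replicate 1. None of the 13 was highest there with arrays scaled to the same median. Mfge8, Vegfa and Cp spanned 1.31-fold, 1.20-fold and 1.17-fold.

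Markers of other tissues also differed between the pools. In a pool of whole retinas, fewer cells of a type and less RNA per cell cannot be told apart. Pigment epithelium and melanocyte markers (6 of 10 measured, with Rpe65 not analysed here) had summed signals of 2031, 12917 and 8368 in replicates 1, 2 and 3. Pmel and Dct, genes of the pigment granule, were 454 and 765 in replicate 1, and Tyrp1, Tyr and Rdh5 were below background there. Ttr, the other one of the 3 markers above background on all arrays, gave 609, 891 and 533 and was lowest in replicate 3. The summed signal of the list was thus lowest in the pool where Clu, Aqp4 and Car14 were lowest, but not each of its markers. The astrocyte markers (6 of 7 measured) summed to 7608, 15766 and 12664. Their sum was carried by Aldoc, with 5324, 10278 and 8455, and Gja1, with 1147, 4383 and 3046, both of which Müller cells also express, whereas Gfap and S100b were highest in replicate 1 and the astrocyte transcription factor gene Pax2 was below background there. Smooth muscle and connective tissue markers (10 of 10 measured) summed to 5423, 6238 and 8703, but had no common order. Of the 6 above background on all arrays, 4 were lowest in replicate 2, 1 in replicate 1 and 1 in replicate 3. The 4 include Col1a2, read at an _r probe set. Dcn and Acta2 were below background in replicate 1, at 23.1 and 55.5. So were further probe sets of Col1a2 (38.8, 219 and 269), Col1a1 (37.9, 150 and 158) and Fbln1 (126, 947 and 997). Pdgfrb, at 390, 120 and 95.5, Col3a1, at 189, 82.9 and 145, and Tagln, at 458, 410 and 393, were highest in replicate 1. Pdgfrb was below background in replicate 3. Further probe sets of Col3a1 were also highest in replicate 1, but below background on every array. Endothelial markers (8 of 8) summed to 3364, 1762 and 2241, highest in replicate 1 as Vim was. Only 4 of the 8 were above background on all arrays, and dim probe sets as a whole were higher in replicate 1. Those 4 were highest in replicate 1, where 42.1% of all genes were. After quantile normalization 3 of the 4 were, against 39.1%, and with arrays scaled to the same median 2 were, against 23.6%. Flt1, 1 of the 4, gave 722, 272 and 318 at its brighter probe set. Its other probe set gave 88.7, 271 and 265, and was below background in replicate 1. Rod markers (8 of 9) summed to 100772, 148456 and 102161, lens markers (8 of 11) to 169999, 242156 and 161272, blood markers (5 of 7) to 5535, 31736 and 8295 and microglial markers (9 of 9) to 3822, 2542 and 3701. Only 5 of the 9 microglial markers were above background on all arrays. In that sum Csf1r entered at an _r probe set with 1432, 248 and 223, whereas its other probe set gave 324, 262 and 354. The 9 Müller members summed to 29510, 45472 and 35969. Replicate 2 was highest, as in the sums of the rod, lens, blood, astrocyte and pigment epithelium lists. These sums are under the main scaling only. There, probe sets of the highest quintile had median log2 deviations of -0.20 in replicate 1 and 0.21 in replicate 2. After quantile normalization 5 of 8 rod genes, 5 of 8 lens genes and 3 of 9 members were highest in replicate 1, against 39.1% of all genes. The part of these tissues in the members' differences was not tested.

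**Figure D4:**
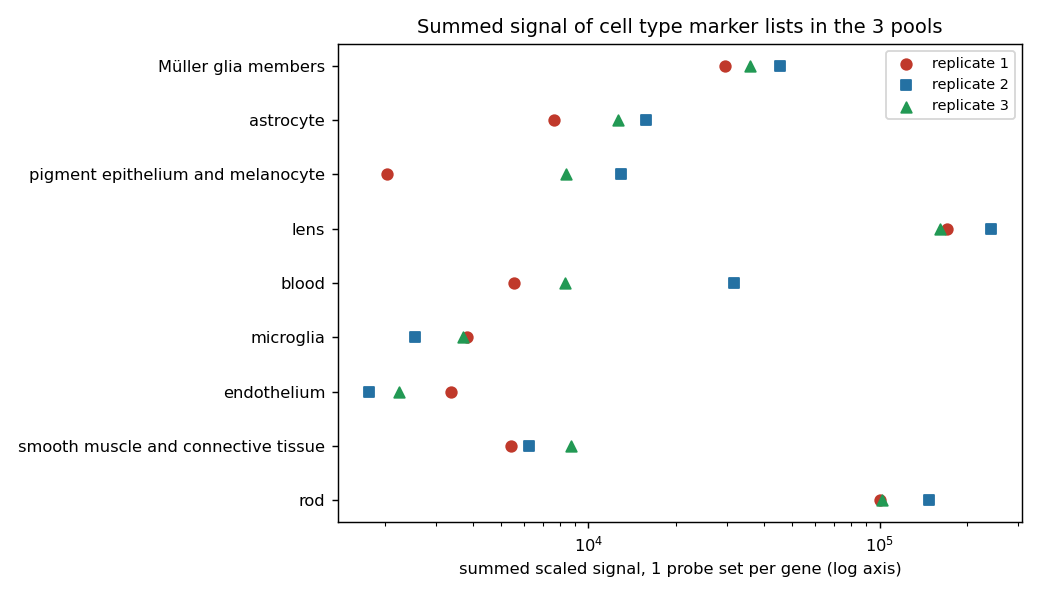
Summed scaled signal (log axis, 1 probe set per gene) of the Müller members and of 8 lists of cell type markers in replicates 1 (circles), 2 (squares) and 3 (triangles). The pigment epithelium and melanocyte sum is lowest in replicate 1, at 2031 against 12917 and 8368, and the endothelial sum is highest there.

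As a measure of RNA integrity, the ratio of 3′ to 5′ control probe sets was 0.90, 0.93 and 0.85 for Gapdh in replicates 1, 2 and 3, and 1.31, 1.499 and 1.47 for beta-actin. For the transferrin receptor it was 14.7 in replicate 1 against 4.30 and 3.32, but the 5′ signal of 47.3 in replicate 1 was below background. Its part in the members' differences was not tested.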

How the data were processed

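Values were the deposited linear signal intensities, 1 per probe set and array. The software, background correction and scaling target that the authors used are not given in the sources used here; the deposited intensities shared a 2% trimmed mean of 500.2, 500.3 and 500.2. Each array was multiplied by a factor (0.998, 1.00 and 1.00) that equalised this mean over the 12422 non-control probe sets. For log2 values, signals below an array's 5th percentile were set to it. Gene names came from the platform annotation: 10833 probe sets had 1 symbol, 396 had several and 1193 had none; genes were named through the 10833. All probe sets of the 10 members are given. Of each other list the highest-mean probe set per gene was used, with values printed mainly for up to 3 genes of widest range above background; other genes were picked with their values in view. The members and lists were chosen with earlier results of these data known. With 1 group there was no test, so counts stand beside the share of all probe sets or genes. The number of arrays limits the precision. Computation was checked on simulated data. Scripts ran under Python 3.11.15 (scipy 1.17.1, numpy 2.4.6 and pandas 2.3.3). Alternative scalings, limits, floors and pseudocounts were tried, and each pool was left out in turn.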

Additional observations from a re-analysis of the deposited data

How the results depend on the processing

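The number of member probe sets spanning 2-fold or more, 7 in the main setting, was 11 with arrays scaled to a common median. It lay between 1 and 6 when each pool was left out in turn, the 1 being without replicate 1. The median log2 SD of 0.63 lay between 0.25 (without replicate 1) and 0.62 in the same way. The number of genes whose probe sets shared their highest array, 1 of 3, was 2 with a common median (Aqp4 and Clu) and 2 after quantile normalization (Clu and Glul), and between 1 and 3 with pools left out. Other alternatives kept these counts, the number above background (11 to 13) and the number lowest in replicate 1 (6 to 9) within 1.5 times. Over the ranges of single probe sets, 111 of 117 values with all pools, and 26 of 39 with a pool left out, moved by less than 1 SD. The range of a single probe set does not depend on the background limit or filter. Settings that change only these could not move it, and leaving out the floor moved no member. The 111 of 117 is therefore no measure of robustness to scaling. The number above background had no value without the background filter, and the number lowest in replicate 1 had none without that pool. No paired analysis was possible because the samples form 1 group. With 3 arrays and no detection calls, dim probe sets such as Vim are the least precise: with the highest control as limit, Vim was not above background on all arrays.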

Other observations

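Probe sets of other glial genes differed among themselves as those of Glul did. Notch1, a receptor of glial and progenitor cells, gave 87.6, 528 and 602 in replicates 1, 2 and 3 at 97497_at but 767, 168 and 274 at 162204_r_at. Gja1, the gap junction gene of glia, gave 1147, 4383 and 3046 at 100064_f_at and 562, 505 and 369 at 100065_r_at. Over the 99 genes with both a plain and an _r probe set above background, the median of the largest log2 difference between them was 0.92, and over the 321 genes with at least 2 plain probe sets it was 0.52. The share of genes whose pair had its highest signal on the same array was 33.3% in the first case and 34.6% in the second. These comparisons were chosen after the values were seen.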
